A study of Mus musculus with 12 samples.

Results

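Open chromatin was measured at 9 mouse genes that build or break down gangliosides, the sialic acid-bearing glycolipids that are abundant in brain membranes. The genes were St3gal5, St8sia1, B4galnt1, St3gal1, St3gal2 and St3gal3 for synthesis and Hexa, Gm2a and Neu1 for breakdown. Every ATAC-seq peak that the deposited tables assign to one of these genes was taken, which gave 200 of 281974 peaks: 72 of 91770 in microglia, 60 of 107627 in NeuN+ nuclei and 68 of 82577 in Olig2+ nuclei. The assignment is to the nearest start site, so a peak may lie inside another gene. ATAC-seq counts the DNA fragments that a transposase cuts from accessible chromatin, and its level at a gene is not a level of RNA. The libraries came from forebrain of C57BL/6 mice aged 4 months, either wild type (WT) or SgshKO, which lack Sgsh, the lysosomal N-sulfoglucosamine sulfohydrolase that helps degrade heparan sulfate. Live microglia were collected by their CD11b and CX3CR1 staining and low CD45. NeuN+ nuclei (PU.1- and OLIG2-, mostly neurons) and Olig2+ nuclei (PU.1- and NEUN-, the oligodendrocyte lineage) were sorted after brief, light formaldehyde fixation, so cell type and preparation cannot be told apart. Each of the 6 groups had 2 libraries. The labels give no animal number, sex or batch and do not describe the Sgsh allele, so p-values measure only the spread between these libraries, which may be technical, and a start site's accessibility cannot check the knockout.

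Gangliosides are made in the Golgi by adding sugars, one at a time, to lactosylceramide. St3gal5 adds the sialic acid that makes GM3, St8sia1 adds another to make GD3, and B4galnt1 adds N-acetylgalactosamine to make GM2 and GD2, after which St3gal1 and St3gal2 sialylate the longer chains, while St3gal3 acts largely on glycoproteins. Breakdown takes place in the lysosome, where the Gm2a protein lifts GM2 out of the membrane for the beta-hexosaminidase whose alpha subunit is Hexa, and Neu1 is a sialidase. Loss of Hexa or Gm2a causes storage of GM2, and GM2 and GM3 are known to build up secondarily in brain when heparan sulfate cannot be degraded.

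RefSeq promoter windows of GRCm38.p6, the assembly that mm10 names, were matched by symbol for 6 of the 9 genes, St3gal3, St3gal5, St8sia1, Hexa, Gm2a and Neu1. Each window holds 300 bases, from 250 before to 50 after the annotated start. The windows of the 3 breakdown genes are shown because the genotype comparison in microglia separates them. All 3 are read on the plus strand, 5′ to 3′, and capitals mark bases that lie inside a microglial peak of that gene.
Gm2a, chr11:55097735-55098034: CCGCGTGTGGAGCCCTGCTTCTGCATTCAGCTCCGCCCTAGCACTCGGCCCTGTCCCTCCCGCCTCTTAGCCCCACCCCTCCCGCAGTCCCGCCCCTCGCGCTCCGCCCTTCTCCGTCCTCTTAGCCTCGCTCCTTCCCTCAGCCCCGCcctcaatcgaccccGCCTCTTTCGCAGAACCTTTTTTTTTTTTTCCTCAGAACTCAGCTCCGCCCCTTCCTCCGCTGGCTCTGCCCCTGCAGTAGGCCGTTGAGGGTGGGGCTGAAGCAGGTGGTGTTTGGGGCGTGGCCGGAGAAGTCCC
Neu1, chr17:34931003-34931302: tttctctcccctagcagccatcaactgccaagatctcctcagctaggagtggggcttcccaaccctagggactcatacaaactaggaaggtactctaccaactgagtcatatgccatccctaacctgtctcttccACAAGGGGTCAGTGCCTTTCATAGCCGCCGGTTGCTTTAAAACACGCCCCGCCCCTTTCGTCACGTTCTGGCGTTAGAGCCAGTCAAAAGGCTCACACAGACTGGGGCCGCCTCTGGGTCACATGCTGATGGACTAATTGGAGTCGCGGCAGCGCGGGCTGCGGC
Hexa, chr9:59539290-59539589: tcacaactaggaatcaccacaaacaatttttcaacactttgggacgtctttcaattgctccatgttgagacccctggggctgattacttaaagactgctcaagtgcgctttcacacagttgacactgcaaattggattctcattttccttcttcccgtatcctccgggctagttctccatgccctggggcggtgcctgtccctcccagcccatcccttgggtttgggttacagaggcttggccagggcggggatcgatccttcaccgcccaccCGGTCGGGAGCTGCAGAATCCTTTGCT
In microglia 286 bases of the Gm2a window and 165 of the Neu1 window lay in peaks, but only the last 27 of the Hexa window, whose peak sat in the first exon. The Gm2a window was 65.7% G or C with 21 CG pairs, that of Neu1 56.3% with 13, and that of Hexa 53.3% with 10, while the median of all 32851 windows was 52.7% with 7. The E-box core CACGTG, the longer TCACGTG and the CLEAR element consensus of lysosomal genes, which both contain that core, were searched on both strands, together with the PU.1-type motif GAGGAAGT. Over all windows 7.15% held CACGTG, 3.76% TCACGTG, 0.326% the CLEAR consensus and 3.2% GAGGAAGT. Among the 6 member windows the only match was 1 GAGGAAGT on the opposite strand in the St3gal3 window, 228 bases before the start.

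Libraries held from 10771659 to 19555924 tags, and deposited values are tags scaled to a library total of 10000000. The share of tags in peaks was 48.7% to 67.4% in microglia, with SgshKO replicate 1 at the top, 25.9% to 26.7% in WT and 21.2% to 21.5% in SgshKO NeuN+ nuclei, and 30.9% to 31.8% in Olig2+ nuclei. The sorts carried their own markers: start-site peaks were present for 9 of 10 microglial markers in microglia (Aif1 had none), 10 of 10 neuronal markers in NeuN+ nuclei and 10 of 10 oligodendrocyte markers in Olig2+ nuclei. No microglial marker had a start-site peak in NeuN+ nuclei and 1 of 10 had one in Olig2+ nuclei, while 6 of 10 oligodendrocyte markers had one in microglia.

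In microglia the start sites of 2 breakdown genes were more accessible in SgshKO: Gm2a, 4.62-fold and 3.96-fold at its 2 start-site peaks, and Neu1, 2.09-fold. The start-site peaks of Hexa and of the 6 synthesis genes did not pass the test. Here and below, changes are SgshKO minus WT on the log2(tags + 1) scale, tested with limma, and a peak was called when its Benjamini-Hochberg adjusted p over the whole table was under 0.05. Of the 72 peaks 5 were called (6.94%), 4 higher and 1 lower, beside 5.05% higher and 2.33% lower over the whole table, so the number of calls was near the background. The median change was 0.01 for the members and -0.08 for all peaks. Within 1000 bp of a start site 3 of 21 members were called, all higher, beside 8.59% higher and 1.2% lower among all such peaks. Groups are described below as separate, or not overlapping, where both SgshKO libraries lay on 1 side of both WT libraries. Such separation held for 51.1% of all peaks in microglia, 68.5% in NeuN+ and 61.2% in Olig2+ nuclei. It therefore adds little to a call.

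**Figure D1:**
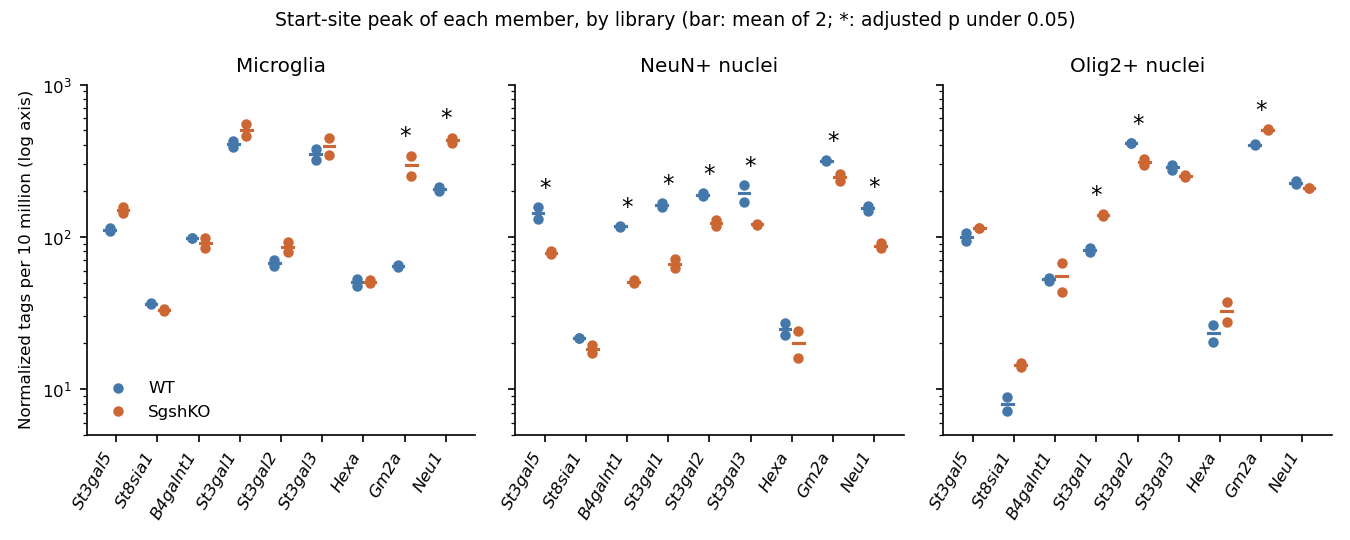
Normalized tags (log axis) of the peak nearest each gene's start site in each library, WT in blue and SgshKO in orange, with bars at the mean of 2 libraries and an asterisk where the adjusted p was under 0.05. Gm2a rises in microglia from 63.1 and 65.2 to 251 and 342, while in NeuN+ nuclei 7 of the 9 genes carry an asterisk and all 7 are lower in SgshKO.

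The Gm2a peak at position 15 from the start (chr11:55097898-55098103, promoter and first bases of the gene) held 63.1 and 65.2 normalized tags in WT and 251 and 342 in SgshKO microglia. The neighbouring peak at -217 (chr11:55097654-55097883) held 143 and 146 in WT and 468 and 676 in SgshKO. In both peaks the SgshKO libraries lay far above the WT libraries, which were close to each other, and SgshKO replicate 2 was the higher of its pair. The changes were 2.17 ± 0.29 (SE; adjusted p = 4.71e-06) and 1.95 ± 0.27 (adjusted p = 5.68e-06). A peak at the end of Gm2a, at 15675 and found only in microglia, was the strongest of its 5 peaks, with 551 and 414 in WT and 898 and 552 in SgshKO. Its groups were separate by a narrow margin and it was not called.

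Neu1, the lysosomal sialidase, had 212 and 199 normalized tags in WT and 448 and 411 in SgshKO microglia at its start-site peak (position -13, chr17:34931138-34931343). The groups did not overlap and the change was 1.06 ± 0.26 (adjusted p = 0.00755). The call was lost without WT replicate 1 (log2 1.10) and without WT replicate 2 (1.02), while the value barely moved. With 1 WT library left, calls became far fewer over the whole table too. Hexa, whose product acts on GM2 together with the Gm2a protein, had 52.7 and 47.4 in WT and 49.4 and 52.0 in SgshKO at position 138 in its 5′ untranslated first exon. The Hexa groups overlapped and the 95% interval of the change ran from -0.69 to 0.72. The strongest Hexa peak in microglia lay in intron 1 at 5366, with no overlapping peak in the nuclei, at 474 and 422 in WT and 435 and 279 in SgshKO.

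Among the synthesis genes, the GM3 synthase gene St3gal5 had 109 and 114 normalized tags in WT and 143 and 156 in SgshKO microglia at its start site (-173, chr6:72097316-72097554). The groups were separate, but the change of 0.42 ± 0.29 was not called (adjusted p = 0.415). St3gal1 and St3gal3 had the most accessible start sites of the 9 genes in WT microglia. St3gal1 had 424 and 386 in WT and 549.8 and 459 in SgshKO at -84, a change of 0.31 that turns negative under quantile normalization (-0.25). St3gal3 had 379 and 321 in WT and 448 and 343 in SgshKO at -37, with overlapping groups. The start sites of B4galnt1 (98.5 and 97.4 in WT, 84.8 and 97.5 in SgshKO), St8sia1 (36.3 and 36.4, then 33.8 and 32.5) and St3gal2 (70.0 and 64.4, then 79.7 and 91.9) were also not called.

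Of the synthesis genes' distal peaks in microglia 2 were called, and both were weak. An intergenic peak upstream of B4galnt1 (position -2245) held 6.05 and 11.0 normalized tags in WT and 34.6 and 26.0 in SgshKO (1.75 ± 0.46, adjusted p = 0.0145). An intergenic peak at -6482 from St3gal5, seen only in microglia, held 24.2 and 16.1 in WT and 2.6 and 8.36 in SgshKO, which is the 1 lower call (-1.84 ± 0.52, adjusted p = 0.0231). Neither pair of groups overlapped, and both calls were lost without either WT library, where calls became far fewer over the whole table too. By DESeq2 neither was called (adjusted p = 0.052 for B4galnt1 and 0.216 for St3gal5). The St3gal5 call was also lost under quantile normalization (adjusted p = 0.0557) and without SgshKO replicate 1 (-1.15, adjusted p = 0.053). Without SgshKO replicate 1, 51 of the 72 member changes were below 0, and the median over all peaks was -0.27. Without SgshKO replicate 2, 24 were below 0, and that median was 0.15. Scaling to tags in peaks gave 4 higher and 5 lower calls, beside 5.56% and 10.3% over the table. Quantile normalization gave 5 and 4, beside 7.07% and 4.35%. Marker sums overlapped between genotypes for microglia (2549 and 2203 in WT, 2710 and 2085 in SgshKO), and 2 of 7 markers of blood or border myeloid cells had a peak, at 41.5 to 45.8 in WT and 45.5 to 64.9 in SgshKO. Markers of oligodendrocyte precursors, 1 of 4 with a peak, were at 78.8 and 108 in WT and 48.3 and 52.0 in SgshKO, and their part in the result was not tested.

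**Figure D2:**
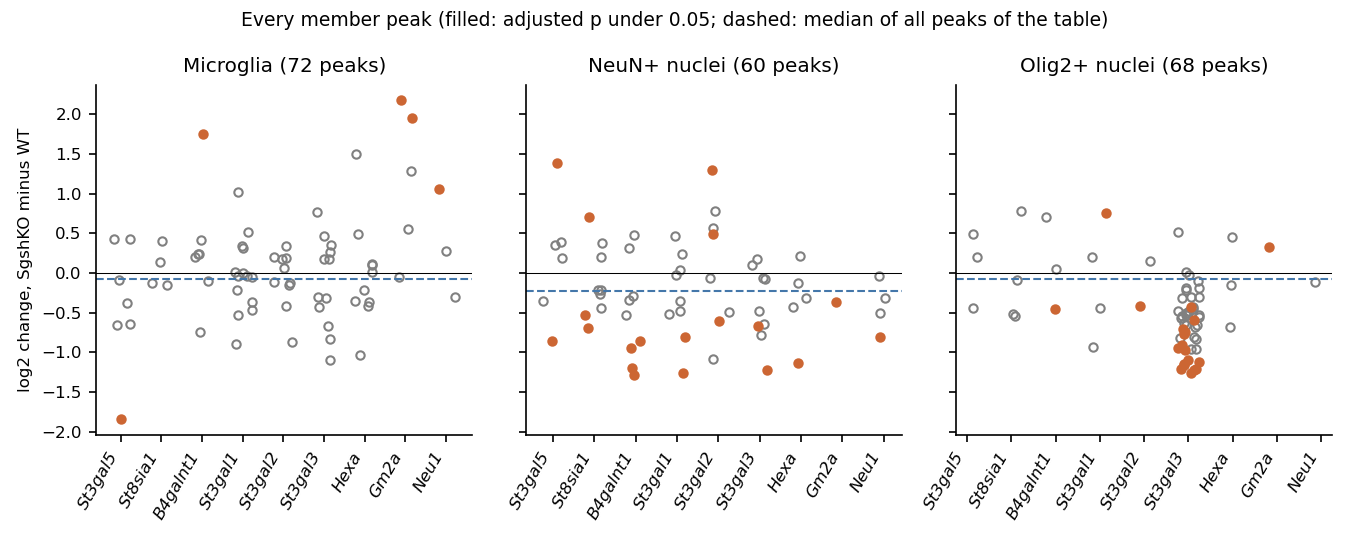
Change on the log2(tags + 1) scale (vertical axis, SgshKO minus WT) of every peak of the 9 genes in each sort, filled where the adjusted p was under 0.05, with a dashed line at the median of all peaks of that table. The 2 filled Gm2a points in microglia stand at 2.17 and 1.95, the filled points of NeuN+ nuclei are mostly below 0, and in Olig2+ nuclei 16 filled points belong to St3gal3.

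In NeuN+ nuclei the start sites of most ganglioside genes were less accessible in SgshKO, in synthesis and breakdown alike. The start-site peaks of St3gal1, B4galnt1, St3gal5, Neu1, St3gal3, St3gal2 and Gm2a fell, by 1.27 to 0.36 on the log2 scale, and the peaks nearest the start of Hexa and St8sia1 did not pass the test. Start sites fell across this whole table: of all peaks within 1000 bp of a start site 44.9% were called lower and 1.74% higher, with a median change of -0.53, and of the members' 16 such peaks 10 were called (62.5%), all lower. Over all distances 19 of 60 members were called (31.7%), 4 higher and 15 lower, beside 10.2% higher and 19.6% lower in the table, a share near the background. The median was -0.31 for members and -0.23 for all peaks.

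B4galnt1, which makes GM2 and GD2, had 117 and 117 normalized tags in WT and 51.6 and 49.5 in SgshKO NeuN+ nuclei at its start site (position 0, chr10:127165005-127165307). St3gal1, which sialylates the longer gangliosides, had 166 and 157 in WT and 71.2 and 62.2 in SgshKO at -62 (chr15:67176831-67177057). Both pairs of groups were far apart relative to their spread. The changes were -1.20 ± 0.13 (adjusted p = 7.9e-06) and -1.27 ± 0.12 (adjusted p = 1.99e-06), and these were the 2 lower calls that remained under quantile normalization. St3gal5 averaged 143 ± 17.9 in WT and 78.4 ± 2.28 in SgshKO (SD, n = 2) at -78 (-0.85 ± 0.12, adjusted p = 8.99e-05). St3gal2 went from 193 and 186 to 129 and 118 (-0.61 ± 0.10, adjusted p = 0.000306). St3gal3 went from 219 and 170 to 120.1 and 121 (-0.67 ± 0.12, adjusted p = 0.00041). In all 3 every SgshKO library was below both WT libraries. St8sia1, the GD3 synthase gene, had 21.5 and 21.5 in WT and 19.5 and 17.1 in SgshKO at its nearest peak, position 23. That peak was not called, and the interval of its change ran from -0.71 to 0.27. Of its 5 peaks within 1000 bp 2 others were called lower, and are named after their values were seen. The peak at -364 went from 45.3 and 46.9 to 31.4 and 31.8 (-0.53 ± 0.18, adjusted p = 0.0331), and the one at 310 in the 5′ UTR from 34.0 and 23.7 to 16.1 and 18.4 (-0.69 ± 0.24, adjusted p = 0.0368). Both calls were lost under each other scaling, by edgeR and by DESeq2.

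Of the breakdown genes, Neu1 had 158 and 149 normalized tags in WT and 83.8 and 90.8 in SgshKO NeuN+ nuclei at position 9 (-0.81 ± 0.11, adjusted p = 7.45e-05), the opposite direction to microglia. Gm2a had 313 and 319 in WT and 259.6 and 232 in SgshKO at -189 (-0.36 ± 0.08, adjusted p = 0.00285). The Gm2a groups did not overlap, but the call was lost under the other scalings and the value turned to 0.19 under quantile normalization. Hexa had 27.2 and 22.6 in WT and 16.1 and 24.1 in SgshKO at its start, with overlapping groups. A weak peak in Hexa intron 1 at 7714 was called lower, with 9.06 and 9.04 in WT and 4.89 and 2.54 in SgshKO (-1.14 ± 0.37, adjusted p = 0.0286). That call was lost under each other scaling, by edgeR and by DESeq2. It was also lost without WT replicate 1 (-1.137) and without WT replicate 2 (-1.14), while the value barely moved.

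The 4 higher peaks in NeuN+ nuclei all lay in introns of synthesis genes. The rule for named peaks gave 1 of them, in St8sia1 at 15121, with 17.6 and 21.5 normalized tags in WT and 32.1 and 32.4 in SgshKO (0.70 ± 0.22, adjusted p = 0.0216). The other 3, chosen for naming after their values were seen, lay in St3gal5 at 11689 (6.23 and 9.60 in WT, 20.9 and 22.9 in SgshKO, 1.39 ± 0.29) and in St3gal2 at 8658 (1.70 and 2.26, then 6.98 and 5.71) and at 19347 (39.1 and 35.6, then 54.4 and 51.4). In each the SgshKO libraries were above the WT libraries. All 4 stayed called higher under each of the 3 other scalings and by edgeR, but by DESeq2 only the St3gal5 peak was called (adjusted p = 0.142 for St8sia1). The St8sia1 call was also lost without WT replicate 1 (0.57) and without WT replicate 2 (0.84).

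The level of the lower calls moved with scaling and library. The median change of all NeuN+ peaks moved from -0.23 to 0.05 when libraries were scaled to tags in peaks, and the members' calls then became 6 higher and 7 lower. They were 4 and 9 with median-of-ratios scaling, 4 and 10 with edgeR and 4 and 2 with quantile normalization. Without either SgshKO library the calls were lost over the whole table, so their loss at the members is not particular to them. Calls also became fewer without either WT library, at the members and over the table. Between 39 and 41 of the 60 member changes were below 0 in these fits, beside 41 in the main fit. The summed start-site tags of the 10 neuronal markers went from 1242 and 1171 to 665 and 670.5, those of the 5 oligodendrocyte markers with a peak from 233 and 198 to 110 and 117, and the share of tags in peaks fell with them. The part of these shifts in the members' changes was not tested.

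In Olig2+ nuclei 1 gene held most of the calls: 16 of the 47 peaks assigned to St3gal3 were lower in SgshKO. Elsewhere the start sites of St3gal1 and Gm2a were higher and that of St3gal2 was lower. Of the 68 members 20 were called (29.4%), 2 higher and 18 lower, beside 8.17% higher and 11.7% lower over the table. Leaving out St3gal3, 4 of 21 were called (19.0%), near the background, with a median change of -0.10 beside -0.07 for all peaks. Within 1000 bp of a start site 3 of 12 members were called, 2 higher and 1 lower, beside 12.7% higher and 7.56% lower.

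St3gal1 had 84.5 and 79.8 normalized tags in WT and 141 and 137 in SgshKO Olig2+ nuclei at -89 (chr15:67176836-67177106), a change of 0.75 ± 0.12 (adjusted p = 4.69e-05). Gm2a had 407 and 399 in WT and 501 and 507 in SgshKO at -142 (chr11:55097677-55098009), a change of 0.32 ± 0.06 (adjusted p = 0.000538). St3gal2 had 415 and 415 in WT and 298 and 326 in SgshKO at -99 (chr8:110919647-110919885), a change of -0.41 ± 0.07 (adjusted p = 0.000129). None of the 3 pairs of groups overlapped, and each stayed called under all scalings, by edgeR and DESeq2, and without any 1 library. The start sites of St3gal5 (106 and 93.6 in WT, 114 and 114 in SgshKO), Neu1 (222 and 231, then 208 and 209) and Hexa (26.4 and 20.4, then 27.7 and 37.2) had separate groups but were not called. Their changes were 0.19 ± 0.12, -0.12 ± 0.09 and 0.45 ± 0.23. B4galnt1 overlapped at its start (51.4 and 53.7 in WT, 43.6 and 67.1 in SgshKO). Its peak at 2157 was lower, from 65.9 and 72.6 to 51.0 and 49.2 (-0.46 ± 0.16, adjusted p = 0.0384). That peak lies inside the gene body, in the 3′ untranslated region of a shorter annotated transcript, from whose start the position is counted. Scaling by median of ratios, quantile normalization, edgeR, DESeq2 and the removal of any 1 library each ended the call. St8sia1 was weak, with 8.82 and 7.16 in WT and 14.8 and 14.0 in SgshKO at 290 (0.78 ± 0.31, adjusted p = 0.0713), and was called higher by edgeR and under quantile normalization.

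The St3gal3 peaks formed a long stretch that was largely specific to the Olig2+ table. Of the 47 peaks, 37 overlapped no peak of the microglia or NeuN+ tables, where St3gal3 had 12 and 9 peaks, and only 116 of 16194 genes with peaks in Olig2+ nuclei had more. By RefSeq gene bodies 27 of the 47 lay inside the neighbouring gene Kdm4a, a histone demethylase gene, 19 inside St3gal3 and 1 between them. The strongest, at -12929 (chr4:118147724-118148026, an intron of Kdm4a), held 470 and 482 normalized tags in WT and 290 and 266 in SgshKO. Both SgshKO libraries were far below both WT libraries, and the change of -0.77 ± 0.07 (adjusted p = 3.97e-09) stayed called under every alternative. At the St3gal3 start itself (-82) the values went from 297 and 275 in WT to 253 and 246 in SgshKO, groups that did not overlap but a change of -0.19 ± 0.08 that was not called (adjusted p = 0.0877).

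**Figure D3:**
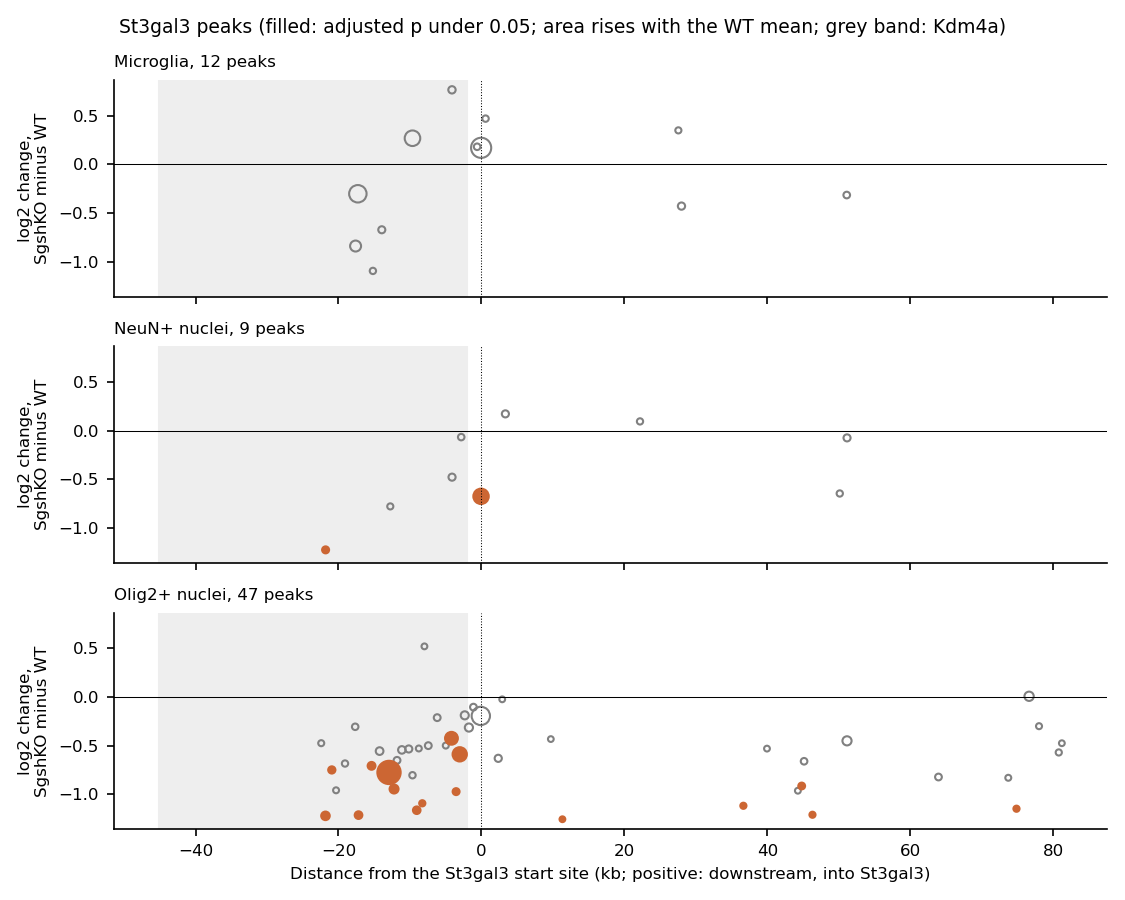
Change on the log2(tags + 1) scale (vertical axis, SgshKO minus WT) of each peak assigned to St3gal3 against its distance from the start site in kb, one panel per sort, filled where the adjusted p was under 0.05, with point area rising with the WT mean and a grey band over Kdm4a. In Olig2+ nuclei 45 of the 47 points lie below 0 on both sides of the start site, and the large filled point in the band is the peak that went from 470 and 482 to 290 and 266.

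Across the stretch 45 of the 47 changes were below 0, and the median was -0.59 in Kdm4a and -0.63 in St3gal3. Inside Kdm4a 11 of 27 peaks were called lower, and their tags summed to 1278 and 1325 in WT and 844 and 794 in SgshKO over all 27. Inside St3gal3 5 of 19 were called lower, and the sums went from 576 and 568 to 457 and 439. The called peaks ran from a WT mean of 6.69 to 476 normalized tags, and in none did the groups overlap, which adds little to the calls. Adjacent peaks of 1 stretch are not independent. Kdm4a itself was assigned 4 peaks, of which 1 was called lower. In microglia 4 of 6 peaks inside Kdm4a and 6 of all 12 St3gal3 peaks were below 0, with a median of -0.07 over the 12. Split by gene body, the microglial median was -0.49 in Kdm4a, with 0 called, and 0.17 in St3gal3. In NeuN+ nuclei 7 of 9 were below 0 and 2 were called, both lower. All 4 NeuN+ peaks inside Kdm4a were below 0, with a median of -0.63, beside -0.07 inside St3gal3. A median below 0 inside Kdm4a was therefore not particular to Olig2+ nuclei, though the other sorts had few peaks there.

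Leaving out 1 WT library of Olig2+ nuclei lowered the number of calls, among the members and over the whole table alike. Leaving out 1 SgshKO library raised it a little among the members and not over the table. Between 51 and 57 of the 68 member changes were below 0 in these fits, beside 56 in the main fit. Quantile normalization gave 3 higher and 8 lower calls, beside 8.89% and 7.81% over the table. The summed start-site tags of 10 oligodendrocyte markers went from 3757 and 3711 in WT to 3107 and 3112 in SgshKO (6 of 28 peaks called lower, 0 higher). Those of 4 precursor markers went from 286.3 and 285.8 to 331 and 328, though of their 9 peaks 1 was called lower and 0 higher. Those of the 5 neuronal markers with a peak went from 261 and 296 to 346 and 336 (2 of 8 peaks called higher, 0 lower). These sums moved with genotype, their part in the members' changes was not tested, and a different makeup of the sort cannot be told apart from a change within cells.

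Across sorts, 12 member peaks had a single partner overlapping by at least 50% both ways in all 3 tables, out of 16761 such peaks. They were the start-site region of each of the 9 genes, a peak in the St3gal1 region at 77842 from its start and 2 St3gal3 peaks at -4119 and 51119, by their position in microglia. In WT, St3gal1 was highest in microglia (424 and 386 normalized tags), then NeuN+ (166 and 157) and Olig2+ nuclei (84.5 and 79.8), and each neighbouring pair differed (adjusted p = 2.16e-08 and 4.68e-06). St3gal2 at its matched peak went from 415 and 415 in Olig2+ to 193 and 186 in NeuN+ nuclei and 118 and 103 in microglia at -156, and each step differed (adjusted p = 3.51e-06 and 0.000179). The St3gal2 start site was split in microglia, and its other peak, at 77, held 70.0 and 64.4, so the step from NeuN+ nuclei to microglia is that of the matched peak and not of the whole start site.

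Gm2a was highest in WT Olig2+ nuclei (407 and 399 normalized tags), then NeuN+ nuclei (313 and 319), with a small step between them (adjusted p = 0.0421) that was lost under each other scaling, by edgeR and without any 1 library of the nuclei. In WT microglia its matched peak held 143 and 146. Its start site was split into 2 peaks there, which together gave 207 and 211 in WT and 719 and 1017 in SgshKO, beside SgshKO means of 504 in Olig2+ and 246 in NeuN+ nuclei. The microglial sums are on the deposited scale, and microglial libraries have a larger share of tags in peaks than both nuclei, so no order of the sorts in SgshKO is drawn from them. Neu1 was close in Olig2+ nuclei (222 and 231) and microglia (212 and 199), which were not called different on the deposited scale (adjusted p = 0.342), and lower in NeuN+ nuclei (158 and 149). Hexa had 52.7 and 47.4 in microglia, 27.2 and 22.6 in NeuN+ and 26.4 and 20.4 in Olig2+ nuclei. Microglia were called higher than both nuclei on the deposited scale, and the nuclei were not called different from each other.

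St3gal5 was close in the 3 WT sorts: 156 and 130.5 normalized tags in NeuN+ nuclei, 109 and 114 in microglia and 106 and 93.6 in Olig2+ nuclei, of which microglia and Olig2+ nuclei were not called different. B4galnt1 was at 117 and 117 in NeuN+ nuclei and 98.5 and 97.4 in microglia, not called different on the deposited scale (adjusted p = 0.244) but called lower in microglia under each other scaling and by edgeR, and at 51.4 and 53.7 in Olig2+ nuclei. St8sia1, at its matched peak at -744, was at 47.0 and 45.2 in NeuN+ nuclei, 36.3 and 36.4 in microglia and 15.0 and 29.1 in Olig2+ nuclei. Microglia and NeuN+ nuclei were not called different there on the deposited scale, but microglia were called lower under each other scaling and by edgeR. The higher St8sia1 call in microglia than in Olig2+ nuclei was lost under each of these, with values from 0.08 (in-peak scaling) to 0.42 (median-of-ratios scaling). St3gal3 at its start was at 379 and 321 in microglia, 297 and 275 in Olig2+ and 219 and 170 in NeuN+ nuclei, and microglia and Olig2+ nuclei were not called different (adjusted p = 0.0909). The 2 distal St3gal3 peaks were higher in Olig2+ nuclei than in either other sort, with 123 and 131 in Olig2+ nuclei at the one at -4119, 19.9 and 31.3 in microglia and 22.7 and 22.6 in NeuN+ nuclei.

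Of the 12 matched members, 4 were called higher and 3 lower in WT microglia than in WT NeuN+ nuclei, beside 46.5% higher and 19.3% lower of all matched peaks. Against WT Olig2+ nuclei microglia had 4 higher and 4 lower, beside 42.7% and 24.5%, and NeuN+ against Olig2+ nuclei gave 4 higher and 6 lower, beside 19.1% and 30.4%. These level comparisons lean on the scaling, and microglial libraries have more of their tags in peaks: the median of all matched peaks in microglia against NeuN+ nuclei moved from 0.47 to -0.49 when tags in peaks set the scale. That scaling left 1 higher and 8 lower, beside 18.9% and 47.7% of all matched peaks. The other 2 scalings and edgeR left 2 higher and 6 lower, beside 30.7% to 32.0% and 33.3% to 35.6%. With in-peak scaling the Neu1 and St3gal3 start sites were lower, not higher, in microglia than in NeuN+ nuclei (-0.56 and -0.13). The Neu1 value was also below 0 with median-of-ratios scaling (-0.08) and edgeR (-0.09). The Hexa call against NeuN+ nuclei was lost under each of these (0.03 with in-peak scaling, 0.49 with median-of-ratios scaling, 0.35 with quantile normalization and 0.49 by edgeR), and that against Olig2+ nuclei with in-peak scaling (0.38) and quantile normalization (0.48). Neu1 was called lower in microglia than in Olig2+ nuclei with in-peak and median-of-ratios scaling and by edgeR, and St3gal5 with in-peak scaling. The St3gal3 start site was called lower there with in-peak scaling and higher with quantile normalization. The lower Neu1 and St3gal3 start sites in NeuN+ than in Olig2+ nuclei were no longer called with in-peak scaling and quantile normalization. Against Olig2+ nuclei in-peak scaling gave 1 higher and 7 lower, median-of-ratios scaling and edgeR gave 3 and 5, and NeuN+ against Olig2+ nuclei became 4 higher and 3 lower with in-peak and quantile scaling.

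Whether the genotype change itself differed between sorts was tested at the 12 matched peaks, in 3 contrasts that share libraries. For Gm2a the change in microglia exceeded that in NeuN+ nuclei by 2.32 ± 0.20 (adjusted p = 3.56e-09) and that in Olig2+ nuclei by 1.63 ± 0.20 (adjusted p = 2.72e-06). For Neu1 the differences were 1.87 ± 0.18 (adjusted p = 2.26e-08) and 1.18 ± 0.18 (adjusted p = 4.99e-05). These 4 differences were called under each other scaling, by edgeR and without any 1 library. St3gal1 differed between the nuclei, lower in SgshKO NeuN+ and higher in SgshKO Olig2+ nuclei, by -2.02 ± 0.20 (adjusted p = 8.80e-06), and this too was called in each of those alternatives.

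**Figure D4:**
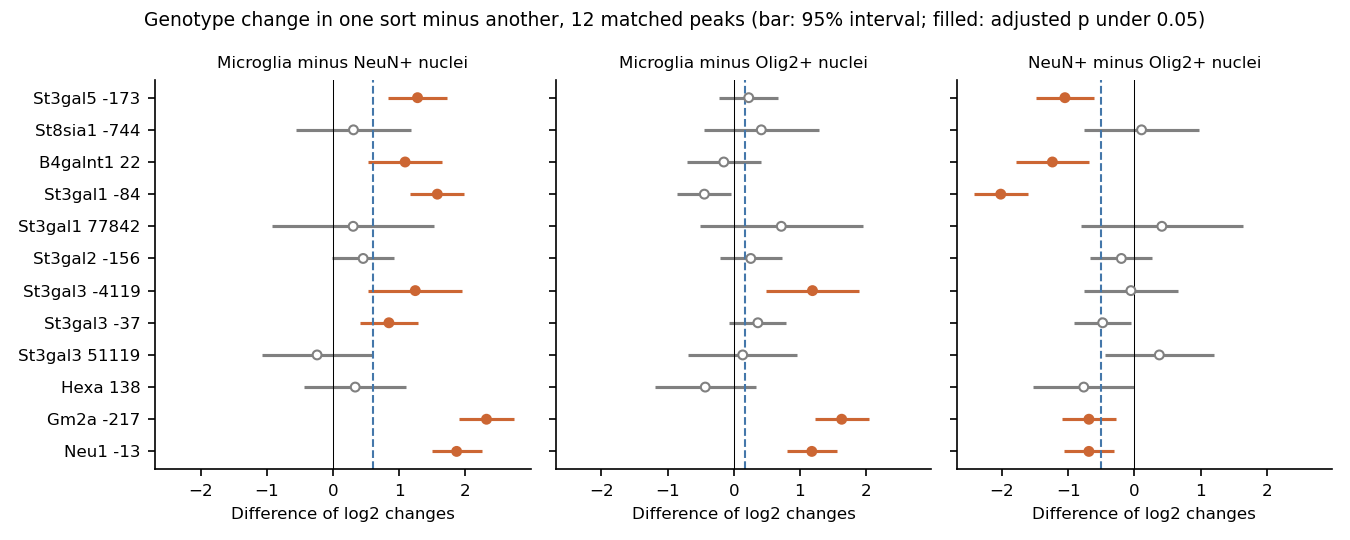
Difference between sorts in the SgshKO minus WT change (horizontal axis, log2 scale) of the 12 matched member peaks, named by gene and position in microglia, with 95% intervals, filled where the adjusted p was under 0.05 and a dashed line at the median of all matched peaks. Gm2a and Neu1 stand to the right of the dashed line in both microglial panels, at 2.32 and 1.63 and at 1.87 and 1.18, and St3gal1 stands at -2.02 between NeuN+ and Olig2+ nuclei.

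In the microglia minus NeuN+ contrast 7 of the 12 were called, all higher, beside 40.8% higher and 1.68% lower of all matched peaks, whose median was 0.60. Of these, B4galnt1 and both St3gal3 peaks were lost with in-peak scaling, median-of-ratios scaling and edgeR, and quantile normalization left Gm2a and Neu1. In the microglia minus Olig2+ contrast 3 were called, all higher, beside 17.6% higher and 3.99% lower: Gm2a, Neu1 and the St3gal3 peak at -4119, whose difference was 1.19 ± 0.34 (adjusted p = 0.0146) and was lost without microglial WT replicate 1 (0.87), Olig2+ WT replicate 2 (1.14) and Olig2+ SgshKO replicate 2 (1.14). St3gal1, at -0.44 and not called here (adjusted p = 0.117), was called lower under each other scaling and by edgeR, which made 3 higher and 1 lower. Removing SgshKO replicate 2 of microglia raised the count to 5. In the NeuN+ minus Olig2+ contrast 5 were called, all lower, beside 0.913% higher and 30.8% lower: St3gal1, B4galnt1, St3gal5, Neu1 and Gm2a. Of these only St3gal1 stayed called with median-of-ratios scaling, quantile normalization and edgeR. With 80% overlap only 4 member peaks were matched, and the start sites of Gm2a, Neu1 and St3gal1 were not among them.

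Beyond the 9 genes, 34 other genes of ganglioside and glycosphingolipid handling were counted, 17 for synthesis and 17 for breakdown and lysosomal export. In microglia 27 of their 266 peaks were called (10.2%), 13 higher and 14 lower, beside 5.05% higher and 2.33% lower over the table. Of 26 start-site peaks 3 were higher: B4galt5, which makes lactosylceramide (108 and 103 normalized tags in WT, 200.0 and 364 in SgshKO, 1.35 ± 0.30), Slc17a5, the lysosomal sialic acid exporter (131 and 139.8, then 246 and 248, 0.86 ± 0.27), and Npc1, the lysosomal cholesterol exporter (347 and 288, then 538 and 593, 0.83 ± 0.25). The median change of the 14 breakdown start sites was 0.70 and that of the 12 synthesis start sites 0.13, beside 0.03 for all peaks within 1000 bp of a start site, with 2 and 1 called and a background of 8.59% higher.

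In NeuN+ nuclei 80 of the 247 peaks of the 34 genes were called (32.4%), 30 higher and 50 lower, near the table's 10.2% higher and 19.6% lower. Of their start sites, 13 of 15 for synthesis and 8 of 15 for breakdown were lower, with medians of -0.88 and -0.40, around the -0.53 of all peaks within 1000 bp of a start site, of which 44.9% were called lower. The glucosylceramide synthase gene Ugcg, at the head of the pathway, went from 113 and 114 normalized tags to 53.0 and 48.2 (-1.15 ± 0.14). In Olig2+ nuclei 37 of 217 peaks were called (17.1%), 12 higher and 25 lower, near the table's 8.17% higher and 11.7% lower, and 12.7% of all peaks within 1000 bp of a start site were called higher. Of their start sites 3 of 14 for synthesis were higher (Gne, Ugcg and St3gal6), and among those for breakdown Asah1, Neu3 and Scarb2 were higher. Ugcg went from 66.4 and 53.7 to 85.5 and 86.4 (0.52 ± 0.15).

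**Figure D5:**
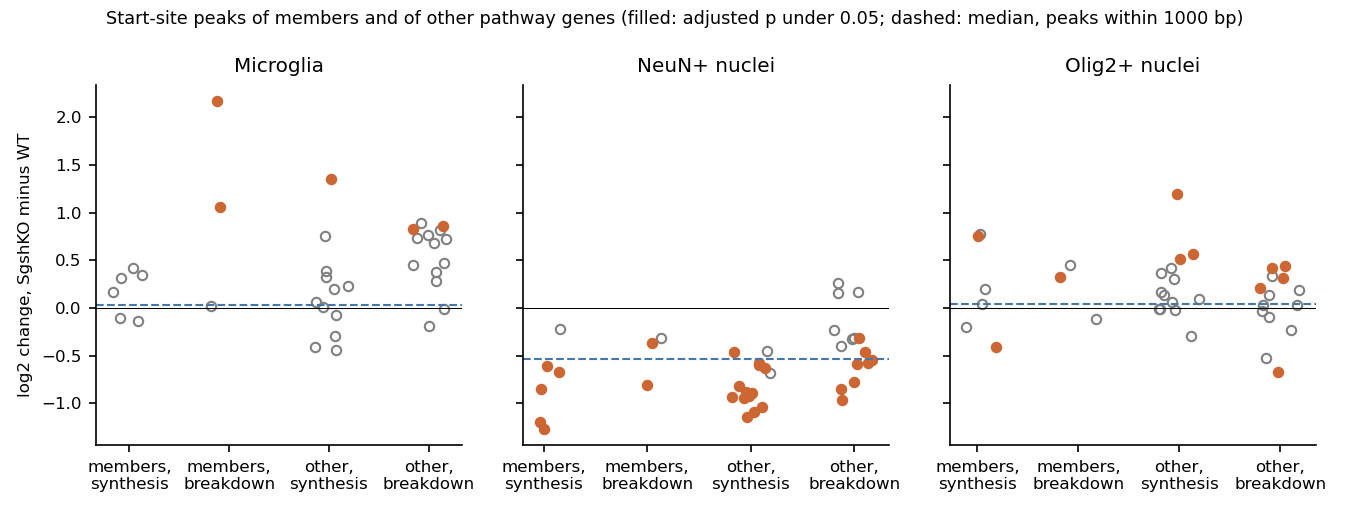
Change on the log2(tags + 1) scale (vertical axis, SgshKO minus WT) of the start-site peaks of the 9 genes and of the other pathway genes, split into synthesis and breakdown, in each sort, filled where the adjusted p was under 0.05, with a dashed line at the median of all peaks within 1000 bp of a start site. In NeuN+ nuclei the filled points are all below 0, 7 of them members, and in microglia the 2 filled breakdown members are Gm2a at 2.17 and Neu1 at 1.06.

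As a description over the 12 libraries, which share sort, depth and genotype structure, each gene's start-site peak was set against those of the other genes with a matched one, 10246 start-site peaks in all. The profiles most like Gm2a were those of Xpc and Rab14 (Pearson r of 0.98 and 0.98), and 151 peaks had r above 0.9. For Neu1 they were Mast3 and Slc25a42 (0.996 and 0.993), with 857 above 0.9, and for St3gal1 Zfp362 and Hmga1 (0.989 and 0.987), with 1316. B4galnt1 and St8sia1 had few like profiles, 19 and 3 above 0.9.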

How the data were processed

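Each of 12 ATAC-seq libraries is 1 column of the 3 tables that the authors deposited, 1 per sort. The deposited signal is tags per peak scaled, per the file headers, to 10000000 tags per library, and the tables also give the authors' Peak Score, a score per merged peak that was not used in any test. Bowtie2, HOMER and mm10 are named in the submitters' processing notes, and for duplicate removal or read shifting no step is stated: not given in the sources used here. Whole reads were recovered for 100% of values (within 0.01), and 0 tag columns were left without a sample. Median reads per peak ran from 17 to 39, so single weak peaks carry wide intervals.

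log2(tags + 1) was fitted for every peak of a table with limma 3.58.1 in R 4.3.3 (lmFit, eBayes with trend, two-sided, no covariate), and across sorts for 16761 peaks with 1-to-1 reciprocal overlap of 50% (12 libraries, 6 group means). P-values were adjusted by Benjamini-Hochberg over all peaks fitted, and no peak was filtered out of the main limma fits. DESeq2 gave an adjusted p to 86432 of 91770 microglial, all 107627 NeuN+ and 36149 of 82577 Olig2+ peaks. In microglia and Olig2+ nuclei its calls are therefore not over the same peaks as those of limma. Alternatives were a pseudocount of 5, removal of the lowest 25% of peaks, 3 other scalings, edgeR 4.0.16 and DESeq2 1.42.0 on the recovered reads, a replicate block, each library left out, an adjusted p under 0.01 and an overlap of 80%. The fits were also run on simulated counts with equal means in both genotypes apart from added changes. Those counts held no table-wide shift like that of NeuN+ nuclei, so no result here rests on them. Peaks were named by rule: per gene and sort the peak nearest the start site (within 1000 bp) and the called peak with the smallest p. The genes, lists and tests were chosen with earlier results of these data known. Values of some pathway genes are not reported here.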

Additional observations from a re-analysis of the deposited data

Results flagged for a closer look

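The genotype change at a matched peak differed between sorts, by limma's interaction test at an adjusted p under 0.05, in 15 cases, all given as the difference of the log2 changes at the peak named by its position in microglia. Microglia minus NeuN+ nuclei gave 2.318 for Gm2a at -217, 1.867 for Neu1 at -13, 1.575 for St3gal1 at -84, 1.277 for St3gal5 at -173, 1.242 for St3gal3 at -4119, 1.089 for B4galnt1 at 22 and 0.8441 for St3gal3 at -37. Microglia minus Olig2+ nuclei gave 1.631 for Gm2a, 1.179 for Neu1 and 1.19 for St3gal3 at -4119. NeuN+ minus Olig2+ nuclei gave -2.019 for St3gal1, -1.239 for B4galnt1, -1.05 for St3gal5, -0.6877 for Neu1 and -0.6871 for Gm2a. The 3 contrasts share libraries, and the median difference over all matched peaks was 0.60, 0.17 and -0.50 in that order.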

How the results depend on the processing

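Without any 1 library, under each other scaling, by edgeR and DESeq2 and with the replicate block, the Gm2a start-site calls held in microglia and Olig2+ nuclei, as did St3gal1, St3gal2 and the strongest St3gal3 peak in Olig2+ nuclei. Depth limits the weak distal peaks. The cause of the changes listed here was not tested, except that 80% overlap and the removal of libraries leave fewer peaks or samples.

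The replicate number shared by libraries is a number only, with 2 per group. Deviations of same-numbered libraries from their group means correlated at 0.06 in microglia and 0.01 in both kinds of nuclei. Fitted as a block (replicate block), it gave 9 calls in microglia in place of 5, 20 in place of 19 in NeuN+ nuclei and 22 in place of 20 in Olig2+ nuclei. The calls in microglia were 9 with in-peak scaling, 9 with quantile normalization, 8 by edgeR, 3 by DESeq2 and 3 at an adjusted p under 0.01. In NeuN+ nuclei they were 6 with quantile normalization, 5 by DESeq2 and 9 at 0.01, and in Olig2+ nuclei 11, 6 and 9. Leaving out 1 library at a time gave 2 to 13 calls in microglia, 0 to 9 in NeuN+ nuclei and 8 to 24 in Olig2+ nuclei. The 0 calls by limma came without either SgshKO library of NeuN+ nuclei, where 20 and 18 members had an unadjusted p under 0.05.

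With 80% overlap 4 member peaks were matched, of which 1 was called in microglia against NeuN+ nuclei, 3 against Olig2+ nuclei and 2 between the nuclei, and 0 in each of the 3 genotype contrasts by limma (0 also at an unadjusted p under 0.05). The contrast microglia minus NeuN+ nuclei had 4 calls with in-peak scaling, 4 with median-of-ratios scaling, 2 with quantile normalization and 4 by edgeR in place of 7. NeuN+ minus Olig2+ nuclei had 3, 1, 1 and 1 in place of 5. Leaving out 1 library gave 2 to 5 for microglia minus Olig2+ nuclei.

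The following values changed sign. In microglia Hexa at 138 was -0.185 and St3gal3 at -37 was -0.03632 with in-peak scaling, and St3gal1 at -84 was -0.2526 and St3gal3 -0.3528 with quantile normalization. In NeuN+ nuclei Gm2a was 0.1901 with quantile normalization and St8sia1 at 23 was 0.06403 with in-peak scaling. Between WT microglia and NeuN+ nuclei Neu1 was -0.56, -0.08162 and -0.09091 with in-peak scaling, median-of-ratios scaling and edgeR, and St3gal3 was -0.1322 with in-peak scaling. With quantile normalization Gm2a was 0.1661 between the WT nuclei and St3gal3 -0.4074 in microglia minus NeuN+ nuclei. Leaving out 1 library moved Hexa in microglia from -0.0566 to 0.09266, St3gal3 from -0.02131 to 0.3624 and B4galnt1 in Olig2+ nuclei from -0.2611 to 0.3488.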
